A study of Mus musculus with 2 samples.

Results

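Rod phototransduction and outer segment genes encode the proteins with which a rod photoreceptor turns light into an electrical signal, ends that signal, builds its outer segment and recycles its chromophore. The set holds 36 genes listed by symbol, and the list was chosen with earlier results of these data known. Its rows were found among the 27998 gene identifiers of each library by symbol alone. In all, 37 identifiers carry a member symbol, because Rp1 is listed under 2, of which the second held 0 UMIs and was not used. The members lie on 16 chromosomes, and all 36 matched the GENCODE annotation of GRCm38.

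In darkness, cyclic GMP holds a cation channel of the rod outer segment open. Light drives transducin and then phosphodiesterase 6, which breaks down cyclic GMP and lets the channel close, and arrestin, a receptor kinase and a GTPase-activating complex end the response while guanylate cyclases restore cyclic GMP. The outer segment is a stack of discs held in shape by tetraspanins and fed through a connecting cilium, and in mouse rods it grows out in the first postnatal weeks.

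RNA of single cells from the peripheral mouse retina at postnatal day 8 was counted as unique molecular identifiers (UMIs), in 1 droplet-based 3′ library a genotype. The DKO_Skp2het library came from alphaCre; Rb f/f; p107-/-; Skp2+/- retina, which the labels call tumor-resistant. The DKO library came from alphaCre; Rb f/f; p107-/- retina, which the labels call tumor-prone. Both genotypes thus lack p107 in every cell and lose Rb where the alphaCre driver, active in peripheral retinal progenitors and their progeny, has acted, and retina with intact Rb and p107 was not analysed here. The number of animals pooled in a library is not given in the sources used here. With 1 library a genotype no value below has a replicate check, and intervals are 95% intervals for counting error only.

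Promoter sequence is shown first, because the members are alike in the cells that carry them and photoreceptor genes are known targets of the homeodomain factor CRX and the Maf-type factor NRL. RefSeq promoters on GRCm38.p6 were at hand for 27 of the 36 members, all but Gnat1, Pde6a, Pde6g, Rcvrn, Rgs9bp, Guca1b, Rp1, Rp1l1 and Cplx4, and the 250 bases before the first listed RefSeq start of each were searched on both strands for the CRX core TAATCC and the core TGCTGA of the NRL site. TAATCC was found in 12 of 27 member promoters (44.4%), against 1725 of 27025 promoters in the table (6.38%). TGCTGA was found in 8 of 27 (29.6%), against 15.8% of all promoters, and both were found in 5 of 27 (18.5%), against 0.981% of all. A match is a run of letters and not a shown binding site. Some windows, among them those of Samd11 and Rpgrip1, are not upstream of the gene as annotated in GENCODE. Samd11 runs up to base 156255657 there, so its window lies inside the gene. Rpgrip1 begins at base 52110704, so its window lies mostly inside. The promoters with both motifs are printed 5′ to 3′ on the gene's strand with each motif, or its reverse complement (GGATTA for the CRX core and TCAGCA for the NRL site), in capitals. They belong to Sag (rod arrestin), Samd11 (a transcriptional regulator of rods), Aipl1 (a chaperone of phosphodiesterase 6), Rbp3 (the retinoid carrier of the space around photoreceptors) and Rpgrip1 (a scaffold of the connecting cilium).
Sag (chr1:87803430-87803679, plus strand): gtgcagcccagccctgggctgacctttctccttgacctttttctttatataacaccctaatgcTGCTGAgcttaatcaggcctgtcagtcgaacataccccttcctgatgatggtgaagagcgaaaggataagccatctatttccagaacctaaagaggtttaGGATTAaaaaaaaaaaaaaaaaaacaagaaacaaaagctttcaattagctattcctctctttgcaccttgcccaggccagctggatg
Samd11 (chr4:156255343-156255592, minus strand): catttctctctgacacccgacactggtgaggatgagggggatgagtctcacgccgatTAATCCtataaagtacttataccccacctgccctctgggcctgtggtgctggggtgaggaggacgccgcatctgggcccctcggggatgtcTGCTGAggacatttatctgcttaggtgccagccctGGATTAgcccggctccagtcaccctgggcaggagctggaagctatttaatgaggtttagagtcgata
Aipl1 (chr11:72037510-72037759, minus strand): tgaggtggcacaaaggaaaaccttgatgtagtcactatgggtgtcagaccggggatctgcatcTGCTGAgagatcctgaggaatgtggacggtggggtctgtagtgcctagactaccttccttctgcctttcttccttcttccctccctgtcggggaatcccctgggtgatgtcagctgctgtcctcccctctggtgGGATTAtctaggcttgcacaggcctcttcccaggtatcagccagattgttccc
Rbp3 (chr14:33953753-33954002, plus strand): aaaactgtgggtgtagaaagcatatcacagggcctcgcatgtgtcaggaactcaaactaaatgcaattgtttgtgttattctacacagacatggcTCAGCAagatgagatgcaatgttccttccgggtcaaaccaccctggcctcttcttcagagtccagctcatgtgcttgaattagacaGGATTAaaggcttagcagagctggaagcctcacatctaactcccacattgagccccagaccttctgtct
Rpgrip1 (chr14:52110653-52110902, plus strand): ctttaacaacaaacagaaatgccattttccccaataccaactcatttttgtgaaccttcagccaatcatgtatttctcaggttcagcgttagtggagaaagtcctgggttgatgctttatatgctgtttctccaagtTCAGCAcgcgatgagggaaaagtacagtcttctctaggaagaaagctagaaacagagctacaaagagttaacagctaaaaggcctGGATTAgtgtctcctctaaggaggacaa
The next pair is shown because these members lay lowest in likeness to the summed set over cell clusters. Abca4, a transporter that clears retinal from discs, and Guca1a, an activator of guanylate cyclase, each held TAATCC without TGCTGA.
Abca4 (chr3:122044210-122044459, plus strand): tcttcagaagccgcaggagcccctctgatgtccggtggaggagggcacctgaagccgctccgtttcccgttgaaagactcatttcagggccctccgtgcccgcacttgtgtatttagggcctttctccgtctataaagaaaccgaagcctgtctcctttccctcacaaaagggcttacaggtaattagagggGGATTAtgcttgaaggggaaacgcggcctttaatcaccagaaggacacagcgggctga
Guca1a (chr17:47400607-47400856, minus strand): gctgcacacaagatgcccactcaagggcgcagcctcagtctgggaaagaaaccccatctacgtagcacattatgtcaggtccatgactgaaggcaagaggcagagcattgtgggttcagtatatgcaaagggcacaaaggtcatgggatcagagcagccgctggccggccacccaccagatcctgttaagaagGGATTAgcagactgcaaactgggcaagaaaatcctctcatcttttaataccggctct

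After filtering, 4978 DKO_Skp2het and 3515 DKO cells were kept, with median depths of 3802.5 and 4869 UMIs, and 29 cell barcodes occurred in both libraries. Clusters were made with the members left out of the clustering genes and named from markers that are no member. Rod-like cells numbered 171 in DKO_Skp2het and 117 in DKO, in 1 large cluster (159 and 103 cells), where all 10 rod markers stood over 2-fold above other cells, and 1 small cluster (12 and 14 cells). The small cluster also held Apoe at 2266 and 1647 CPM and Hes5 at 1592 and 896 CPM, transcripts of Müller glia and progenitors, against 124 and 143 CPM of Apoe and 47.9 and 61.9 CPM of Hes5 in the large cluster. Cone-like cells numbered 65 and 43. Called dividing, by UMIs of 26 proliferation genes at equal depth, were 42.4% of DKO_Skp2het and 54.9% of DKO cells.

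Members were concentrated in rod-like and cone-like cells. Summed over the 36 genes they made up 4.57% of the UMIs of DKO_Skp2het rod-like cells and 3.89% of those of DKO rod-like cells, which is 45668 (45239 to 46099.7) and 38948 (38571 to 39328) CPM, counts per 1e6 UMIs of the population. Single rod-like cells ran between 7578 and 92170 CPM around a median of 47997 in DKO_Skp2het, and between 7676 and 86538.5 around a median of 38601 in DKO. Every rod-like cell of either library thus held members above the median cell of any other class except the cone-like cells and 1 small unnamed cluster. Cone-like cells stood at 41261 and 35738.5 CPM.

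Below these classes the level dropped. The unnamed cluster nearest to rods (23 and 25 cells), which also carried Nhlh2 at 939 and 857 CPM and Ebf1 at 547 and 612 CPM, both genes of immature neurons, held 13445.5 and 15766 CPM. Bipolar-like cells held 2257 and 1636 CPM, photoreceptor and bipolar precursor-like cells 1238 and 1405 CPM, and amacrine-like cells 1203 and 989 CPM. Neurogenic progenitor-like cells held 827 and 1096 CPM, immature neuron-like cells 766 and 660 CPM, progenitor-like cells 581 and 555 CPM, and Müller glia-like cells 542 and 509 CPM. The order below the photoreceptors differed between the libraries, and several neighbours there lay within each other's counting intervals. Single cells also ran far above the median in some classes. The median neurogenic progenitor-like cell held 614 and 593 CPM and the highest 12070 and 34844 CPM. The median amacrine-like cell held 883 and 772 CPM and the highest 25773 and 34600 CPM.

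**Figure D1:**
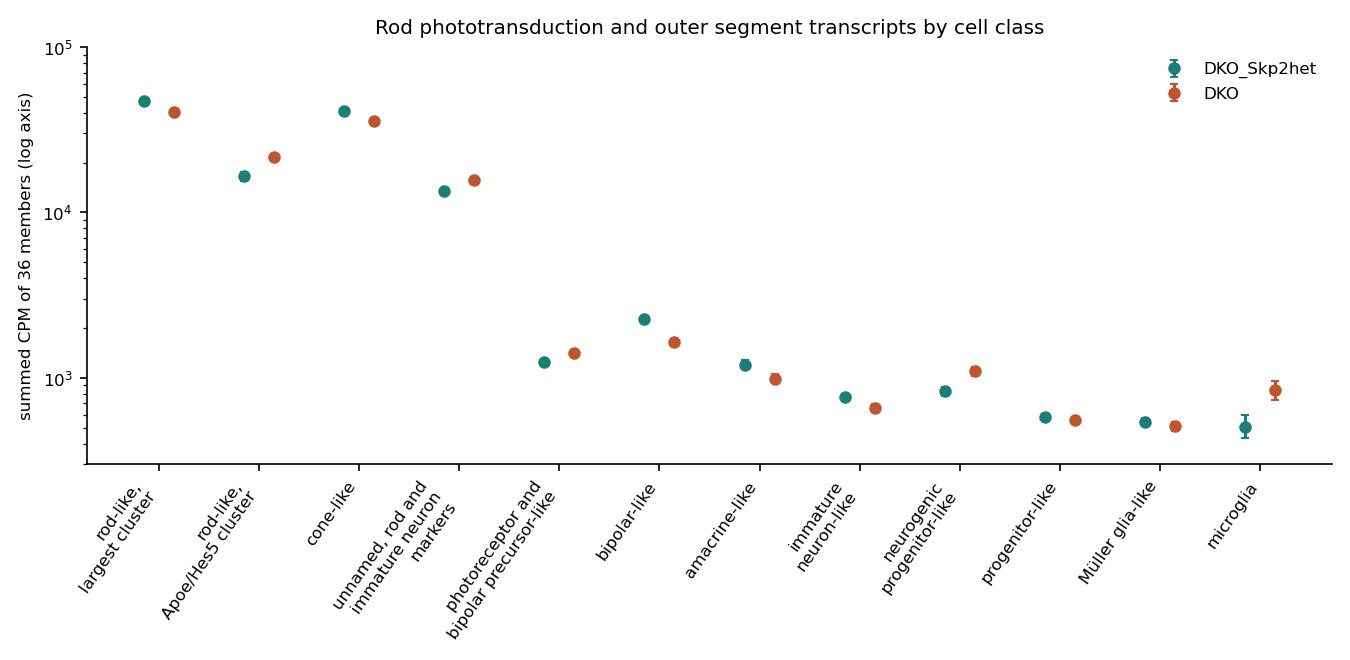
Summed CPM of the 36 members by cell class on a log axis, with DKO_Skp2het left of DKO and bars for 95% counting intervals, many smaller than the symbol. The rod-like clusters and cone-like cells stand between 16537 and 47402 CPM, and the classes from precursor-like cells rightward lie at or below 2257 CPM.

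Microglia, immune cells that do not make the rod cascade, were used to judge the level that free RNA can lend a cell. The rule of at least 4 of 6 microglial markers took 45 DKO_Skp2het and 35 DKO cells, of which 41 and 30 lay in the microglia-like cluster. Those cluster cells held 507 and 839 CPM of summed members, so the progenitor, Müller glia and immature neuron classes lay near the microglia level. By the rule alone the levels were 1448 and 791 CPM. In DKO_Skp2het, 1 cell that met the rule sat in a rod-like cluster and held 319 of the 483 member UMIs of its set, and the ratio of rod-like cells to microglia was 90.1 with the cluster cells alone and 31.5 by the rule. In DKO the same ratio was 46.4 with the cluster cells and 49.3 by the rule, and by the rule it was 29.7 with rods taken as single cells with 3 or more rod markers and 79.5 without Gnb1, Unc119 and Prom1. Single microglia of the cluster reached 1431 CPM in DKO_Skp2het and 4884 CPM in DKO. Gnb1 gave 87 of the 159 member UMIs of the cluster microglia in DKO_Skp2het and 89 of 231 in DKO. Guca1a gave 19 and 24. Without Gnb1, Unc119 and Prom1 the cluster microglia held 198 and 469 CPM. The part of free RNA in these levels was not tested.

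Taken 1 by 1, 32 members could be compared with microglia of the cluster in each library, and all 32 stood at least 2-fold higher in rod-like cells in both, against 44.7% of all comparable genes in DKO_Skp2het and 48.1% in DKO, while the other 4 held under 50 UMIs there. Of 34 members comparable with all other cells together, 33 stood at least 2-fold higher in rod-like cells in each library, against 8.76% of genes in DKO_Skp2het and 7.81% in DKO. The exception was Guca1a. Among members with at least 1 UMI in microglia, the smallest fold apart from Guca1a was that of Gnb1, the transducin β subunit that many cell types share, at 8.33 (6.73 to 10.4) in DKO_Skp2het and 6.88 (5.57 to 8.60) in DKO. Cells thinned to 1500 UMIs gave shares of cells with a UMI that ran over members between 1.17% and 98.2% around a median of 41.8% in DKO_Skp2het rod-like cells, and between 0.855% and 100% around a median of 43.2% in DKO rod-like cells. In microglia at the same depth the median share was 0% in both, with a highest of 36.6% and 33.3%, both for Gnb1.

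**Figure D2:**
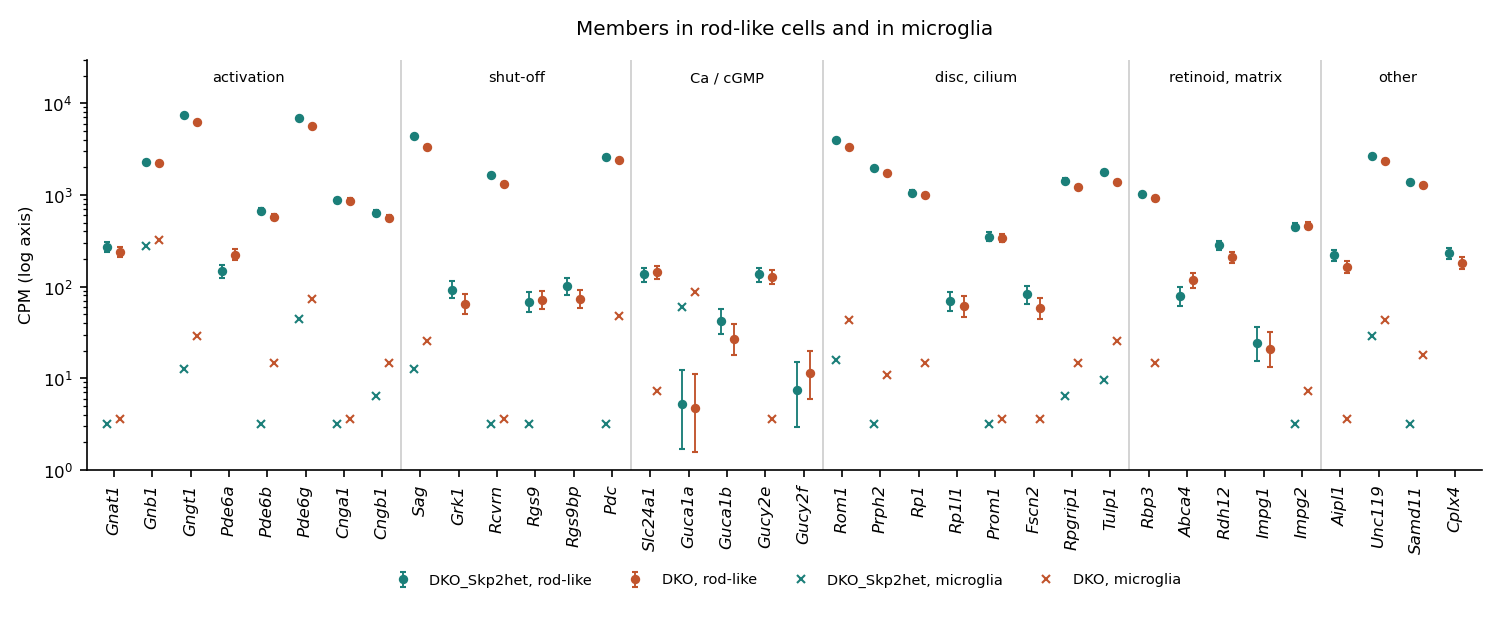
CPM of each member in rod-like cells (circles, bars for 95% counting intervals) and in microglia of the microglia-like cluster (crosses, drawn only where at least 1 UMI was counted), on a log axis, grouped by role, with DKO_Skp2het left of DKO. Guca1a is the member whose microglia level, 60.6 and 87.2 CPM, lies above its rod-like level, 5.26 and 4.78 CPM.

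Between the libraries, most members were slightly higher in DKO_Skp2het than in DKO rod-like cells. The summed level had a ratio of 1.17 (1.16 to 1.19) and the median log2 difference over 33 members with at least 50 UMIs was 0.17, against a median of -0.0026 over all 5764 genes measured there. That median was 0.38 with rods taken as single cells with 3 or more rod markers and 0.097 with no doublets removed. Of these members 28 of 33 lay above 0, against 49.7% of all genes. No member stood at least 1.5-fold higher on the log2(CPM + 5) scale, against 2.45% of genes, and 1 stood at least 1.5-fold lower, against 3.99%. Here and below, 3′ UMI counts are not divided by transcript length, so levels are compared between cells and libraries and not between genes.

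Several measures moved with that difference. The depth of rod-like cells had a median of 4235 UMIs in DKO_Skp2het and 6502 in DKO. Called dividing were 8 of 171 DKO_Skp2het rod-like cells (4.68%, 2.04 to 9.01) and 19 of 117 DKO rod-like cells (16.2%, 10.1 to 24.2), while without thinning the shares were 22.8% and 51.3%. The 26 proliferation genes summed to 450 and 1176 CPM in rod-like cells, all 26 with a UMI in each library, and the 8 immature neuron markers to 323 and 567 CPM, all 8 with a UMI. The 10 Müller glia markers summed to 688 and 664 CPM, with 8 of 10 present in each. In rod-like cells not called dividing, 163 and 98 cells, the summed ratio was 1.07 (1.06 to 1.09), the median log2 difference was 0.043, and 22 of 33 members lay above 0, against 49.2% of genes. There 1 member, Pde6a, passed 1.5-fold lower, against 2.54% of genes, and 0 passed it higher, against 2.33%. Gnb1, Cnga1, Pdc, Gucy2e, Rp1 and Prom1 lay above 0 in all rod-like cells and below 0 in those not called dividing. In the large rod-like cluster alone the ratio was 1.18 (1.16 to 1.19), 28 of 33 members lay above 0, against 49.3% of genes, 1 (Guca1b) passed 1.5-fold higher, against 2.63%, and 1 (Pde6a) passed it lower, against 4.23%. In the small cluster the ratio was 0.768 (0.707 to 0.834). The part of depth and of immature cells in the difference was not tested.

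**Figure D3:**
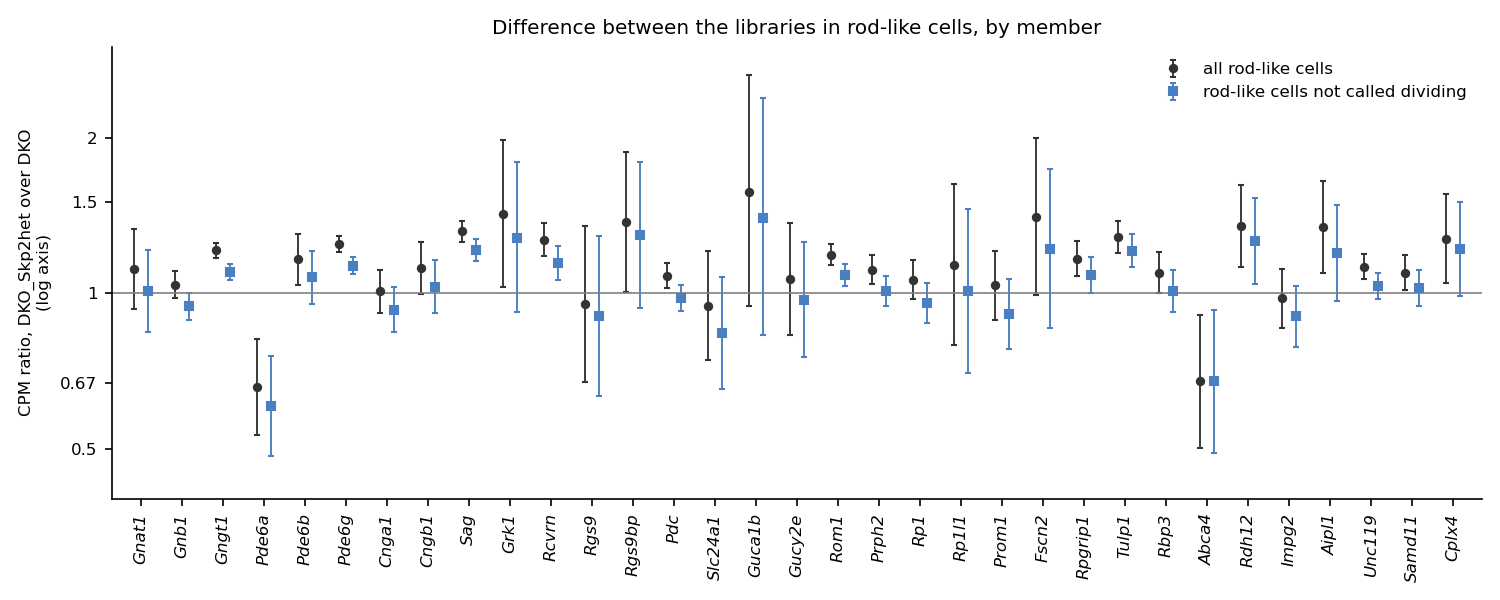
Ratio of CPM in DKO_Skp2het over DKO for the 33 members with at least 50 UMIs in rod-like cells, on a log axis, for all rod-like cells (circles) and those not called dividing (squares), with 95% counting intervals. Most circles lie above 1 and most squares closer to 1, and Pde6a at 0.658 and Abca4 at 0.677 lie lowest among the circles.

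The activation genes are transducin, phosphodiesterase 6 and the cyclic GMP-gated channel, and 7 of 8 were higher in DKO_Skp2het rod-like cells, against 49.7% of all genes, and 5 of 8 in those not called dividing, against 49.2%. Gngt1, the γ subunit of rod transducin, had 7535 CPM in DKO_Skp2het and 6225 CPM in DKO, a ratio of 1.21 (1.17 to 1.25). Pde6g, the inhibitory subunit of phosphodiesterase 6, had 6948 and 5585 CPM, a ratio of 1.24 (1.20 to 1.29). These carried the highest member counts in both libraries, and their ratios outside dividing cells were 1.10 (1.06 to 1.14) and 1.13 (1.09 to 1.17). Gnat1, the rod transducin α subunit, had 268 and 241 CPM, a ratio of 1.11 (0.932 to 1.33), and Gnb1 had 2312 and 2225 CPM, a ratio of 1.04 (0.980 to 1.10).

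Phosphodiesterase 6 has a pair of catalytic subunits. Pde6b, the β subunit, had 667 CPM in DKO_Skp2het and 574 CPM in DKO, a ratio of 1.16 (1.04 to 1.30), which was 1.07 (0.953 to 1.21) outside dividing cells and 0.977 (0.844 to 1.13) in cone-like cells. Pde6a, the α subunit, had 147 CPM (140 UMIs) in DKO_Skp2het and 224 CPM (234 UMIs) in DKO, a ratio of 0.658 (0.530 to 0.815). Pde6a was the member past 1.5-fold lower, and its ratio was 0.605 (0.485 to 0.754) in rod-like cells not called dividing, 0.695 (0.526 to 0.915) in cone-like cells and 0.642 (0.549 to 0.751) over all kept cells. After thinning, 16.4% of DKO_Skp2het and 31.6% of DKO rod-like cells held a Pde6a UMI, and microglia held none (0 UMIs, a rod-like level at least 15.4-fold and 20.5-fold higher against 3 counts over the microglia of a library). For the channel, Cnga1, its α subunit, had 873 and 865 CPM, a ratio of 1.01 (0.917 to 1.11), and Cngb1, its β subunit, had 631 and 564 CPM, a ratio of 1.12 (0.997 to 1.26).

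Among the 6 shut-off genes, 5 were higher in DKO_Skp2het rod-like cells, against 49.7% of all genes, and 4 of 6 in those not called dividing, against 49.2%. Sag had 4418 CPM in DKO_Skp2het and 3353 CPM in DKO, a ratio of 1.32 (1.26 to 1.38) that stayed at 1.21 (1.16 to 1.27) outside dividing cells. Rcvrn, the calcium sensor recoverin that holds back the receptor kinase, had 1656 and 1305 CPM, a ratio of 1.27 (1.18 to 1.37), and it overlaps Glp2r on the other strand. The kinase itself, Grk1, had 92.6 and 65.0 CPM, a ratio of 1.42 (1.03 to 1.98). In rod-like cells not called dividing Grk1 gave 1.28 (0.918 to 1.80), so its interval there takes in 1. Of the GTPase-activating pair, Rgs9bp, the anchor, had 101 and 73.6 CPM, a ratio of 1.37 (1.01 to 1.88) and of 1.29 (0.935 to 1.80) outside dividing cells. Rgs9, the GTPase activator, had 68.4 and 71.7 CPM, a ratio of 0.954 (0.673 to 1.35). Pdc, phosducin, which binds transducin βγ, had 2615.5 and 2421 CPM, a ratio of 1.08 (1.02 to 1.14), which was 0.977 (0.923 to 1.04) in rod-like cells not called dividing.

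The genes of calcium exchange and cyclic GMP synthesis had few UMIs, which leaves wide intervals. Slc24a1, the rod sodium-calcium-potassium exchanger, had 136 CPM in DKO_Skp2het and 143 CPM in DKO, a ratio of 0.946 (0.742 to 1.21). Gucy2e, a photoreceptor guanylate cyclase, had 136 and 127 CPM, a ratio of 1.07 (0.831 to 1.37). Guca1b, a cyclase activator, had 42.1 CPM (40 UMIs) and 26.8 CPM (28 UMIs), a ratio of 1.57 (0.946 to 2.65), which the pseudocount brought below 1.5-fold. For none of the 3 did the interval leave out 1. Gucy2f, the other cyclase, held 7 and 12 UMIs in rod-like cells and was not compared.

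All 8 genes of disc structure, cilium and cytoskeleton were higher in DKO_Skp2het rod-like cells, by ratios between 1.04 and 1.41, against 49.7% of all genes, and 6 of 8 outside dividing cells, against 49.2%. Rom1, a disc rim tetraspanin, had 3952 CPM in DKO_Skp2het and 3325 CPM in DKO, a ratio of 1.19 (1.13 to 1.24). Its partner Prph2 had 1943 and 1750.5 CPM, a ratio of 1.11 (1.04 to 1.18), which was 1.01 (0.945 to 1.08) outside dividing cells. Tulp1, a protein of the inner segment that takes part in transport to the outer segment, had 1764 and 1373 CPM, a ratio of 1.29 (1.20 to 1.38), and kept 1.21 (1.12 to 1.30) outside dividing cells. Of the pair, Tulp1 thus held most of its difference and Prph2 little.

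Rpgrip1, which overlaps Supt16 on the other strand, had 1433 and 1228 CPM, a ratio of 1.17 (1.08 to 1.26). Rp1, a microtubule protein of the axoneme, had 1062 and 1000.02 CPM, a ratio of 1.06 (0.973 to 1.16), and its relative Rp1l1 had 69.4 and 61.2 CPM, a ratio of 1.13 (0.792 to 1.63). Prom1, a membrane protein of nascent discs, had 351 and 339 CPM, a ratio of 1.04 (0.889 to 1.21). Fscn2, an actin-bundling fascin of photoreceptors, had 82.1 and 58.3 CPM, a ratio of 1.41 (0.994 to 2.00). The last 4 had intervals that take in 1.

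The retinoid and matrix genes were mixed. Rbp3 had 1013 CPM in DKO_Skp2het and 924 CPM in DKO, a ratio of 1.10 (1.00 to 1.20), and Rdh12, a retinol dehydrogenase, had 281 and 208 CPM, a ratio of 1.35 (1.12 to 1.62). Abca4 had 78.9 CPM (75 UMIs) and 117 CPM (122 UMIs), a ratio of 0.677 (0.501 to 0.909), which was 0.675 (0.490 to 0.926) outside dividing cells. After Pde6a it was the lowest member in rod-like cells. Impg2, a proteoglycan of the interphotoreceptor matrix, had 451 and 462 CPM, a ratio of 0.977 (0.856 to 1.12). Its relative Impg1 held 23 and 22 UMIs and was below the 50 UMIs asked for.

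The 4 remaining members were each higher in DKO_Skp2het rod-like cells, against 49.7% of genes, and also in those not called dividing, against 49.2%, where all 4 intervals took in 1. Aipl1 had 221 CPM in DKO_Skp2het and 164 CPM in DKO, a ratio of 1.34 (1.09 to 1.65). Unc119, a carrier of lipid-modified transducin, had 2660 and 2361 CPM, a ratio of 1.13 (1.07 to 1.19). Samd11, which overlaps Noc2l on the other strand, had 1392 and 1270 CPM, a ratio of 1.10 (1.02 to 1.18). Cplx4, a complexin of the photoreceptor ribbon synapse, had 230.4 and 181 CPM, a ratio of 1.28 (1.04 to 1.56).

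Over all kept cells the set hardly differed between the libraries. Its summed level was 3860 CPM in DKO_Skp2het and 3711 CPM in DKO, a ratio of 1.04 (1.03 to 1.05). With the microglia level of the rule subtracted the ratio turned to 0.821. The level subtracted was 1448 CPM in DKO_Skp2het, where 1 rod-like cell held 319 of the 483 member UMIs, and 791 CPM in DKO. Microglia of the cluster alone held 507 and 839 CPM. Rod-like cells were 3.44% and 3.33% of kept cells. Of 35 members 21 lay above 0, against 55.8% of all genes, and none passed 1.5-fold on the log2(CPM + 5) scale in either direction, against 0.445% of genes higher and 0.208% lower. In whole-library sums, fewer cells of a type and less RNA per cell cannot be told apart. Outside rod-like and cone-like cells the summed level was 949 and 1036 CPM, a ratio of 0.917 (0.899 to 0.934).

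Cone-like cells, most of which held UMIs of both Nrl and Nr2e3, together carried nearly the whole set at rod-like levels. Cone-like cells with neither factor held less, at 21595 and 7232 CPM of summed members. Among the 33 members, the level in cone-like cells ran between 63.6% and 210% of the rod-like level around a median of 93.1% in DKO_Skp2het, and between 69.6% and 193% around a median of 104% in DKO. Aipl1 was highest in DKO_Skp2het, at 464 CPM in cone-like and 221 CPM in rod-like cells, and in DKO it had 273 and 164 CPM. Rgs9, Rgs9bp, Grk1 and Guca1b also stood above their rod-like levels in both libraries, at 131% to 193% of them. Rom1, Pdc and Cngb1 stood between 69.6% and 75.3% of theirs.

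Guca1a was found in cone-like cells and hardly in rod-like cells. It held 300 UMIs (447 CPM) in DKO_Skp2het and 244 UMIs (370.4 CPM) in DKO cone-like cells, against 5 UMIs in the rod-like cells of each library. In microglia of the cluster it held 19 UMIs in 16 cells and 24 UMIs in 14 cells, or 60.6 and 87.2 CPM. The remaining named classes other than astrocyte-like cells held between 0 and 2.35 CPM, so microglia stood apart from them for this gene. Guca1a (ENSMUSG00000023982) lies on the minus strand of chromosome 17 at 47394558 to 47400584 of GRCm38, and no annotated gene overlaps it.

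Most cone-like cells also carried rod transcription factors. Of the 65 DKO_Skp2het and 43 DKO cone-like cells, 51 and 30 held UMIs of both Nrl and Nr2e3, 6 and 2 of 1 of the pair, and 8 and 11 of neither. Those with both had median depths of 8635 and 12479 UMIs and held 43797 and 43136 CPM of summed members, together with all 13 cone markers, which summed to 11853 and 10285 CPM. Cells with neither held 21595 (20200 to 23061) and 7232 (6777 to 7710) CPM of members, and 12 of 13 cone markers at 26539 and 9427 CPM. Whether cells with both are doublets or single cells was not tested.

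In cone-like cells without Nrl or Nr2e3, members differed widely among themselves. Gngt1 had 6156 and 1409 CPM, Pde6g 4338 and 1417 CPM, and Guca1a 1285 and 393 CPM. Gnat1, Pde6a, Pde6b, Cnga1 and Cngb1 held 1 or 2 UMIs each in DKO_Skp2het and 0 in DKO, and Slc24a1 held 0 in both. The rod transducin α subunit, the catalytic subunits and the rod channel were thus near or at 0 counts in these 8 and 11 cells, while the transducin γ subunit and the inhibitory subunit remained. Of the cone-like cells with neither factor, 1 of 8 and 5 of 11 were called dividing.

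Between the libraries, cone-like cells had a summed ratio of 1.15 (1.13 to 1.17), and 24 of 34 members lay above 0, against 51.2% of genes. In the same cells the 8 immature neuron markers, all with a UMI, summed to 256 and 707 CPM, the 26 proliferation genes, all with a UMI, to 713 and 1532 CPM, 6.15% and 16.3% were called dividing, and median depths were 7161 and 11076 UMIs. Their part in the ratio was not tested. Aipl1 at 1.70 (1.41 to 2.05) and Rgs9bp at 1.63 (1.19 to 2.26) passed 1.5-fold higher, against 3.99% of genes, and none passed it lower, against 6.03%. Among cells with both Nrl and Nr2e3 the summed ratio was 1.02 (0.997 to 1.03).

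**Figure D4:**
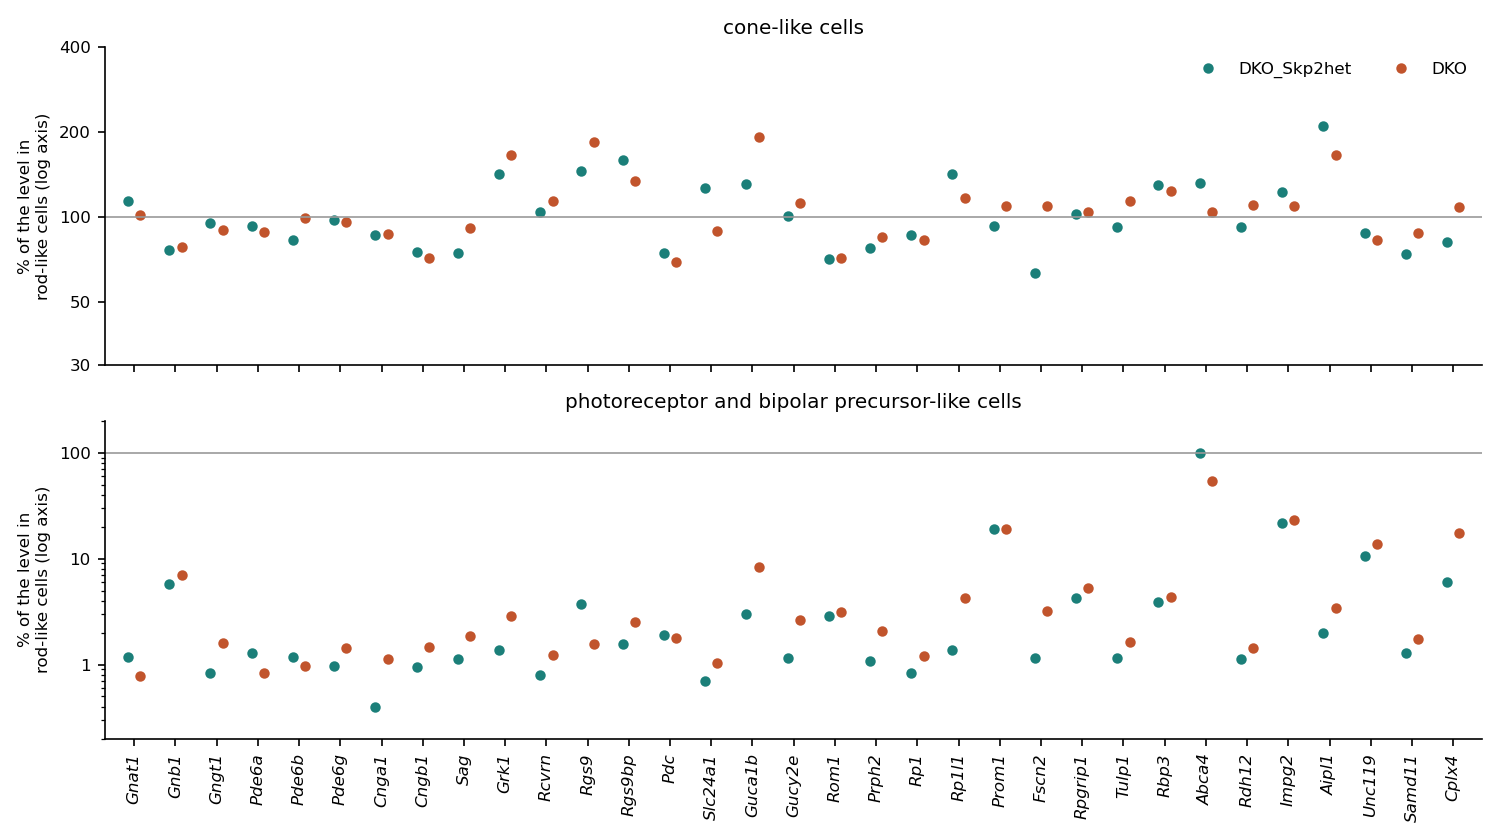
Level of 33 members in cone-like cells (top) and in photoreceptor and bipolar precursor-like cells (bottom), as a percentage of the same library's rod-like level on log axes, with DKO_Skp2het left of DKO. Cone-like values, from cells most of which held Nrl and Nr2e3 UMIs, lie around 100%. Precursor-like values lie mostly between 0.398% and 8.39%, with Abca4, Impg2, Prom1, Unc119 and, in DKO, Cplx4 above 10%.

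Precursor-like cells, named from Otx2, Neurod4, Prdm1, Crx and Neurod1, held most members at a few percent of the rod-like level and a few members well above that. The median member stood at 1.29% of its rod-like level in DKO_Skp2het and 2.07% in DKO. Abca4 had 78.9 CPM (250 UMIs) and 63.3 CPM (169 UMIs) in precursor-like cells, 100% and 54.3% of its rod-like level, and 0 UMIs in microglia of either library. Impg2 had 98.1 and 107.5 CPM, 21.7% and 23.3% of the rod-like level, against 3.19 and 7.26 CPM in microglia. Both were thus well above the microglia level in precursor-like cells, while Gnb1, at 133 and 156 CPM, was below its microglia level of 277 and 323 CPM.

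Prom1, which progenitors of several tissues also use, had 66.9 and 64.0 CPM in precursor-like cells, against 3.19 and 3.63 CPM in microglia. Unc119 had 281 and 326 CPM, against 28.7 and 43.6 CPM in microglia, and Rpgrip1 had 60.6 and 64.8 CPM, against 6.38 and 14.5 CPM. The cascade genes proper were lower, with Gngt1 at 62.5 and 99.6 CPM and Pde6g at 67.8 and 80.1 CPM, 0.829% and 1.60% of the rod-like level for Gngt1 and 0.976% and 1.43% for Pde6g. Against microglia of the cluster, at 12.8 and 29.1 CPM of Gngt1 and 44.7 and 72.6 CPM of Pde6g, the precursor-like level was higher for Gngt1 and close to it for Pde6g.

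Abca4 was also found in other classes. Neurogenic progenitor-like cells, all called dividing, held 123 and 107.04 CPM of it, 155% and 91.8% of the rod-like level. An unnamed cluster of 14 and 8 cells led by genes such as Dlk1 and Sct held 10 and 17 UMIs, 177 and 478 CPM. Müller glia-like cells held 5.39 and 3.42 CPM and amacrine-like cells 4.47 and 5.09 CPM. Abca4 (ENSMUSG00000028125) lies on the plus strand of chromosome 3 at 122044443 to 122180123 of GRCm38, where 2 genes that do not code for protein overlap it on the other strand.

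Between the libraries, 18 members could be compared in precursor-like cells, and 4 of 18 lay above 0 in DKO_Skp2het, against 50.5% of genes. Their median log2 difference was -0.21, and 3 stood at least 1.5-fold lower, against 1.53% of genes, and none at least 1.5-fold higher, against 1.60%. These were Gngt1 at a ratio of 0.627 (0.519 to 0.757), Prph2 at 0.573 (0.413 to 0.792), with 20.8 and 36.3 CPM, and Cplx4 at 0.436 (0.296 to 0.635), with 13.9 and 31.8 CPM. The microglia level of Gngt1 and Prph2 was also lower in DKO_Skp2het, at 12.8 and 29.1 CPM and at 3.19 and 10.9 CPM, while Cplx4 had 0 UMIs in microglia of both libraries. The part of free RNA in the first pair was not tested. Median depths of precursor-like cells were 3473.5 and 5643 UMIs, and 62.2% and 72.6% were called dividing. Single precursor-like cells reached 16739 and 15452 CPM of summed members around medians of 964 and 955 CPM. The part of depth, dividing cells and such high cells in the difference was not tested.

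Bipolar-like cells also held several members above the microglia level. Unc119 had 868 and 655 CPM there, 32.6% and 27.7% of the rod-like level, and Rgs9bp, which ON bipolar cells also use, had 36.5 and 20.7 CPM, 36.1% and 28.2%. Rcvrn had 43.6 and 52.4 CPM, and Rom1 226 and 127 CPM. Microglia held 28.7 and 43.6 CPM of Unc119, 0 UMIs of Rgs9bp, 3.19 and 3.63 CPM of Rcvrn, and 15.9 and 43.6 CPM of Rom1. In amacrine-like cells Gnb1 had 514 and 478 CPM, above its microglia level, and Rgs9 had 13.4 and 17.8 CPM, 19.6% and 24.8% of its rod-like level.

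The unnamed cluster with immature neuron markers held the 33 members between 14.1% and 95.6% of the rod-like level around a median of 28.7% in DKO_Skp2het, and between 20.1% and 59.0% around a median of 38.7% in DKO. Nrl had 410 and 597 CPM there and Nr2e3 749 and 893 CPM. The lowest was Guca1b at 14.1% in DKO_Skp2het, from 1 UMI, and Gucy2e at 20.1% in DKO, from 5 UMIs. Sag had 227 and 326 UMIs, 30.5% and 49.6% of the rod-like level.

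Dividing rod-like cells held less of the set than other rod-like cells in both libraries. In DKO_Skp2het the 8 dividing cells had 30748 CPM and the 163 others 46354 CPM, a ratio of 0.663 (0.627 to 0.701). In DKO the 19 dividing cells had 20576 CPM and the 98 others 43259 CPM, a ratio of 0.476 (0.460 to 0.491). With rods taken as single cells with 3 or more rod markers the ratios were 0.181 and 0.231. Single dividing rod-like cells ran between 19605 and 48178 CPM in DKO_Skp2het and between 11165 and 46961 CPM in DKO, so they overlapped the others, and all lay above the highest microglia of the cluster. The count of cells is small, and 20 DKO_Skp2het and 19 DKO rod-like cells lay at 2 or 3 proliferation UMIs, next to the limit of 3. Among cells at or above the lowest depth of a DKO barcode the ratios were 0.559 and 0.621. The order of the libraries thus turned, while both stayed below 1. That limit, 3420 UMIs, took out no DKO cell, and clustering and thinning were run again. The DKO ratio thus moved past its counting interval with the same kept cells.

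Of 33 members, 32 were lower in dividing than in other rod-like cells in each library, against 56% of the same 5764 genes in DKO_Skp2het and 54.2% in DKO. Abca4 was the exception, at 95.8 CPM in dividing and 78.1 CPM in other rod-like cells of DKO_Skp2het (4 UMIs against 71), a ratio of 1.23 (0.325 to 3.28), and at 121 and 116 CPM in DKO, a ratio of 1.04 (0.639 to 1.64). Gngt1 had 5268 CPM in dividing and 7639 CPM in other rod-like cells of DKO_Skp2het, a ratio of 0.690 (0.6003 to 0.789), and 3129 and 6951 CPM in DKO, a ratio of 0.450 (0.414 to 0.489). Among the 18 members with at least 50 UMIs in dividing DKO rod-like cells, ratios lay between 0.426 for Rp1 and 0.576 for Samd11. The 9 such members in DKO_Skp2het lay between 0.574 for Unc119 and 0.833 for Rcvrn.

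**Figure D5:**
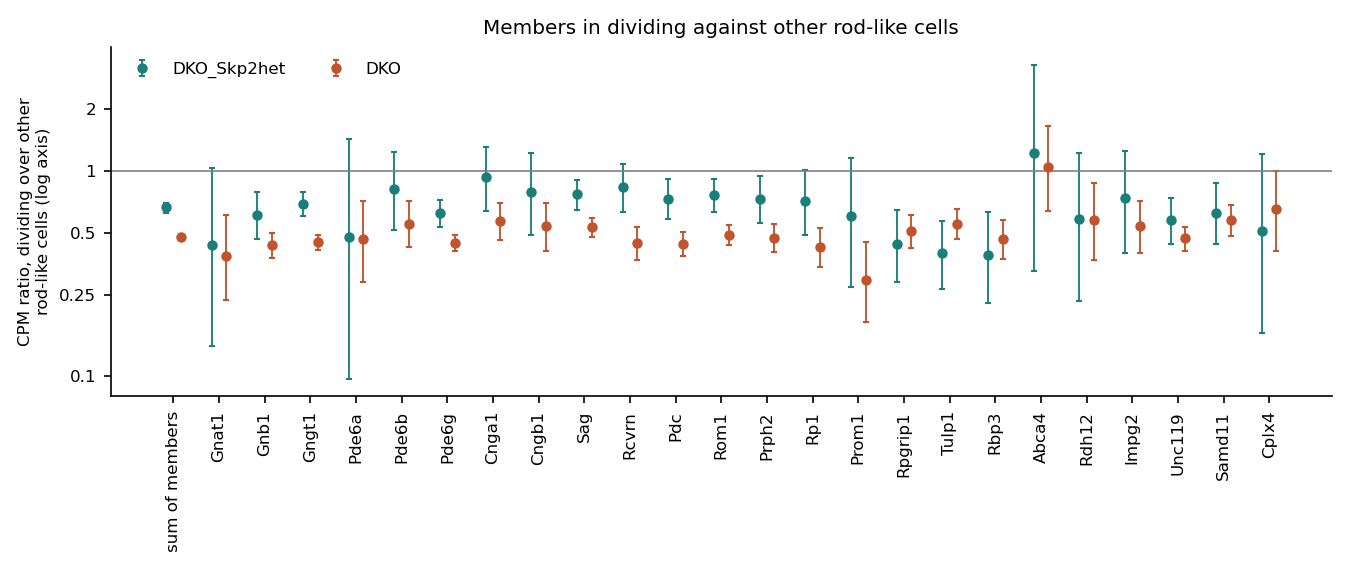
Ratio of CPM in dividing over other rod-like cells on a log axis, for the summed members and for those with at least 20 UMIs in dividing DKO rod-like cells, with DKO_Skp2het left of DKO and 95% counting intervals. The sum lies at 0.663 and 0.476, and Abca4 lies above 1 in both libraries with intervals that take in 1.

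Over whole libraries the contrast was larger. Dividing cells held 1043 CPM and other cells 6358 CPM in DKO_Skp2het, a ratio of 0.164 (0.161 to 0.167). In DKO they held 1308 and 7135 CPM, a ratio of 0.183 (0.180 to 0.186). With the microglia level of the rule subtracted the ratios were 0.0450 and 0.106. That level was 1448 CPM in DKO_Skp2het, above the 1043 CPM of its dividing cells. There 1 rod-like cell held 319 of the 483 member UMIs of the microglia. Of 33 members 32 had ratios below 1 in each library, against 54.4% of genes in DKO_Skp2het and 53.2% in DKO, and Abca4 again went the other way, at 1.44 (1.26 to 1.66) and 1.23 (1.07 to 1.41). Within precursor-like cells, where 62.2% and 72.6% of cells were called dividing, the summed set had ratios of 0.999 (0.934 to 1.07) and 0.953 (0.880 to 1.03). Abca4 there was lower in dividing cells, at 66.8 against 106 CPM in DKO_Skp2het and 53.6 against 103 CPM in DKO, while Prom1 had ratios of 1.67 (1.20 to 2.38) and 1.19 (0.796 to 1.85).

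Over 51 cluster means, 1 for each cluster and library with at least 20 cells, the log2 level of 34 members was compared with that of the summed set as a description. The points share libraries and depth, and each member is part of the sum. The median Pearson correlation was 0.951, and 25 of 34 members lay above 0.9. Few of all 12403 genes did, since Guca1b at 0.902 ranked 72 among them and Unc119 at 0.899 ranked 76. Guca1a (0.489), Abca4 (0.530), Prom1 (0.682), Impg2 (0.783) and Gnb1 (0.791) lay lowest. Among genes that are no member, Tma7 (0.971), AI847159 (0.963), Samd7 (0.962), Nxnl2 (0.961), Nxnl1 (0.955), Calml4 (0.953), RP23-428N8.3 (0.952) and Pitpnm3 (0.951) were among the most alike of 12403 genes.

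Lists of other photoreceptor genes differed little between the libraries in rod-like cells, and 0 of their measured genes passed 1.5-fold, against 2.45% of all genes higher and 3.99% lower. The counts above 0 below stand against 49.7% of all genes. Some listed genes are also markers by which clusters were named. These are 4 rod and 2 cone markers among the transcription factors, and 1 rod marker among the outer segment and cilium genes. The cone phototransduction list holds 10 cone markers. Of 15 photoreceptor transcription factors 13 were measured, 8 of them above 0 around a median log2 difference of 0.054. Crx, an activator of photoreceptor genes, had 989 and 748 CPM, a ratio of 1.32 (1.20 to 1.46), and Nrl, which directs rod fate, had 1668 and 1471 CPM, a ratio of 1.13 (1.06 to 1.22). Prdm1, which holds back bipolar fate, had 127 and 158 CPM, a ratio of 0.807 (0.633 to 1.03), and Esrrb, a nuclear receptor of rods, had 25.2 and 35.4 CPM, a ratio of 0.714 (0.409 to 1.23).

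Of 34 other outer segment and cilium genes 23 were measured, 16 above 0 around a median of 0.12. Bbs7, a BBSome subunit, had 40.0 and 26.8 CPM, a ratio of 1.49 (0.893 to 2.53), Arl6, a GTPase that recruits the BBSome, 1.31 (1.14 to 1.495), and Kif3a, a motor of ciliary transport, 0.773 (0.450 to 1.31). Of 19 photoreceptor synapse genes 18 were measured, 13 above 0 around a median of 0.083, with Stx3, the syntaxin of ribbon synapses, at 1.31 (1.18 to 1.45) and Unc13b, a vesicle priming factor, at 0.686 (0.468 to 0.996). Of 12 cone phototransduction genes 5 were measured in rod-like cells, 3 above 0 around a median of 0.11. Gngt2, the cone transducin γ subunit, had 1604 and 1885 CPM there, a ratio of 0.851 (0.795 to 0.910), and Kcnv2, a potassium channel subunit of photoreceptors, a ratio of 1.35 (1.08 to 1.69). The sign of these medians turned under some alternatives, for the cone genes in thinned cells (-0.24) and with rods taken by 3 markers (-0.075), for the transcription factors without doublet removal (-0.013) and outside dividing cells (-0.036), and for the synapse genes outside dividing cells (-0.0050), while the outer segment and cilium list stayed above 0.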

How the data were processed

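Droplet 3′ single-cell RNA libraries, 1 a genotype, were deposited as matrices of UMI counts per gene and cell barcode, made with Cell Ranger 2.2.0 on mm10, per the submitters' processing notes. The deposited counts are whole and not normalized. The rule by which barcodes were called cells is not given in the sources used here.

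From these counts, cells needed 500 genes or more and a mitochondrial share no higher than 20%, and likely doublets (0.8% for each 1000 barcodes) were removed by scores against simulated pairs, 216 of 5196 DKO_Skp2het and 105 of 3621 DKO barcodes. Clusters came from 2000 variable genes without the members and the proliferation genes, 30 principal components, 15 neighbours and Leiden resolution 1 (scanpy 1.11.5, leidenalg 0.10.2). They were named "-like" where a marker list averaged at least 1 log2 unit above other cells with 3 or more markers over 2-fold. Dividing cells held at least 3 UMIs of 26 proliferation genes after thinning to 1500 UMIs.

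Counts were summed per class and library as CPM. With 1 library a genotype no test was made, and p-values are not given. Intervals are exact 95% Poisson or Clopper-Pearson intervals (scipy 1.17.1) and cover counting error only, since UMIs of 1 cell are not independent. Log2 differences used CPM plus 5 for genes with at least 50 UMIs in the 2 libraries together, and folds against 0 used 3 counts. The ratio intervals and log2 differences were tried on simulated Poisson sums without spread between cells, and thinning was checked for its depth. Doublet removal, clustering, naming and the dividing call were not tried on simulated data. The members and lists were chosen with earlier results of these data known. Members with at least 50 UMIs in rod-like cells, or near the microglia level, were named with values. Of genes outside the set, those named are from the 10 most like it over clusters (at least 100 UMIs, clusters of 20 or more cells) and from up to 3 a list with the largest difference in each direction. A few genes outside the set are not reported here. Alternatives varied filters, depth, clustering, scaling, free RNA and the limit for dividing cells.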

Additional observations from a re-analysis of the deposited data

How the results depend on the processing

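No paired analysis was possible because each genotype has 1 library. For the same reason no value was computed without a library, and counting error is all that the intervals cover. The libraries differ in depth and in the lowest UMI count of a barcode, and 4 alternatives (the larger rod-like cluster alone, rod-like cells not dividing, the unnamed cluster nearest to rods added, and microglia of their cluster alone) were chosen after seeing the data. Of all values under alternatives, 616 moved by less than the main value's counting error or spread, 71 moved by more and 1 reversed. Among values of headline results, 89 moved by less, 55 moved by more and 1 reversed, against 527 and 16 among the others. The cause of those moves was not tested, apart from what an alternative itself leaves out.

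The rod-like ratio between the libraries, 1.17, stayed above 1 in every alternative run. It was 1.16 in cells at or above the lowest depth of a DKO barcode, 1.15 with median-of-ratios scaling, 1.12 with members among the variable genes, 1.10 with no doublets removed, 1.32 with rods taken as single cells with 3 or more rod markers, and 1.07 without dividing cells. The median log2 difference, 0.17, was 0.38 with rods taken by 3 markers.

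The ratio over all kept cells, 1.04, was 1.15 at or above the DKO depth, 1.15 in thinned cells, 1.02 with median-of-ratios scaling, 1.08 with no doublets removed and 1.06 without Gnb1, Unc119 and Prom1. It reversed to 0.821 when the microglia level was subtracted, where 1 rod-like cell that meets the microglia rule raises the DKO_Skp2het level subtracted. The median share of rod-like cells with a UMI, 41.8% in DKO_Skp2het and 43.2% in DKO, was 32.2% in DKO with rods by 3 markers, and 33.9% and 31.6% without Gnb1, Unc119 and Prom1.

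The level of rod-like cells over microglia, 31.5 in DKO_Skp2het and 49.3 in DKO, was 64.5 in DKO for thinned cells, 26.4 and 43.2 with members among the variable genes, 24.7 and 41.7 with no doublets removed, 21.4 and 29.7 with rods by 3 markers, and 39.4 and 79.5 without the 3 shared genes. In DKO_Skp2het it was 90.1 with microglia of the cluster alone and 28.2 with the unnamed cluster added.

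The ratio of dividing to other cells stayed below 1 in every alternative run. Over whole libraries, 0.164 in DKO_Skp2het and 0.183 in DKO, it was 0.178 and 0.2497 at 2 or more proliferation UMIs, 0.173 and 0.187 at 5 or more, 0.140 and 0.218 at or above the DKO depth, 0.208 and 0.248 in thinned cells, 0.0450 and 0.106 with the microglia level subtracted, 0.213 and 0.207 with no doublets removed, and 0.119 and 0.141 without the 3 shared genes. In rod-like cells, 0.663 and 0.476, it was 0.645 in DKO at 2 or more UMIs, 0.557 and 0.5198 at 5 or more, 0.559 and 0.621 at or above the DKO depth, 0.622 and 0.512 in thinned cells, 0.502 and 0.503 with members among the variable genes, 0.499 and 0.4296 with no doublets removed, 0.181 and 0.231 with rods by 3 markers, and 0.627 and 0.519 with the unnamed cluster added. The DKO_Skp2het microglia level subtracted over whole libraries, 1448 CPM by the rule, lay above the 1043 CPM of its dividing cells. The limit at the DKO depth took out no DKO cell, and clustering and thinning were run again there. Subtraction was not applied to the level over microglia, nor another scaling to ratios within a library.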
